A study of Mus with 96 samples.

Results

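The liver genes of the insulin receptor (Insr), its substrates Irs1 and Irs2, the kinase Akt2, and the transcription factors Foxo1 and Foxo3 were followed over the day in mice with and without the clock gene Bmal1 in hepatocytes, on chow and on a diet that causes steatohepatitis. The genes were picked by name, with no threshold on their expression. They are 6 of the 55487 genes in the deposited table, and all 6 were among the 15548 genes with at least 100 counts summed over the libraries.

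Insulin binds a receptor tyrosine kinase on the hepatocyte surface, which phosphorylates the substrate proteins IRS1 and IRS2. These recruit phosphatidylinositol kinase, whose lipid product activates AKT2, the main AKT isoform of hepatocyte insulin action. AKT phosphorylates FOXO1 and FOXO3 and so keeps them out of the nucleus, where, in fasting, they drive genes of glucose output and also the receptor and Irs2 genes themselves.

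Liver RNA of 96 mice was sequenced by BRB-seq, in which each sample is barcoded and reads come from the 3′ portion of the mRNA. Each combination of genotype and diet held 24 mice, 4 at each of ZT 2, 6, 10, 14, 18, and 22, where ZT counts the hours after lights on, with 12 hours of light a day. Hep-Bmal1KO mice carried Alb-Cre/+ with Bmal1 flx/flx, and their Hep-Bmal1WT littermates carried Alb+/+ with the same floxed alleles, so that the presence of Cre and the loss of Bmal1 cannot be told apart. The albumin promoter drives Cre in hepatocytes, and other cells of the liver keep the gene. All mice were on the C57BL/6J background and 8 to 10 weeks old, and were fed for 2 weeks on chow or on cdHFD, a high-fat diet deficient in choline. Each ZT of each group held 2 males and 2 females, except Hep-Bmal1WT cdHFD at ZT 14 with 3 males and 1 female.

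Gene counts summed to between 1861740 and 9718615 per library. Counts of a member in 1 library ran from 12 to 283 for Irs2 and from 26 to 153 for Irs1, and their medians over the libraries lay between 170.5 and 262.5 for the other 4 members. Levels are in CPM, the read count of a gene divided by the TMM-adjusted size of its library and scaled to 1 common total. All 6 hepatocyte markers (Alb, Apoa1, Ttr, Serpina1a, Cps1, Hnf4a) were detected in every group. Reads of Arntl, the gene of BMAL1, had 7.45 to 9.90 CPM in Hep-Bmal1KO and 12.6 to 22.1 CPM in Hep-Bmal1WT livers at ZT 22 on chow. At ZT 10 on chow the order was the other way in the means, with 5.77 CPM in Hep-Bmal1KO and 0.748 CPM in Hep-Bmal1WT livers. The reads come from the 3′ end, outside the floxed part, so the level does not check the deletion. In 7 of the 96 libraries, 10 clock genes and 20 other genotype-dependent genes both lay nearer the other genotype's median. These were 2 of 24 in each of Hep-Bmal1WT chow, Hep-Bmal1KO chow, and Hep-Bmal1WT cdHFD, and 1 of 24 in Hep-Bmal1KO cdHFD. They were kept under their labels, and values without them are given beside the results. Because they were picked by genotype-dependent genes of these data, genotype values without them are not independent of that choice. Without them, 2656 genes (main 1960) were called for genotype on chow and 2024 (main 1494) on cdHFD.

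Differences are log2 fold changes with standard errors (SE) from edgeR's quasi-likelihood test with ZT as a factor, called at a Benjamini-Hochberg adjusted p under 0.05 over the 15548 genes. Diet shifted 4 of the 6 genes in Hep-Bmal1WT mice (Insr, Akt2, Foxo1, Foxo3, all lower on cdHFD) and 3 of 6 in Hep-Bmal1KO mice (Insr, Irs1, Akt2, all lower). The diet effect was widespread, with 55.7% of all genes called in Hep-Bmal1WT livers (28.7% higher, 27.0% lower) and 61.9% in Hep-Bmal1KO livers (32.4% higher, 29.6% lower). The median log2 fold change over all genes was 0.01 and 0.02, respectively. Genotype shifted Irs1 and Irs2 up and Foxo3 down on chow, and Irs2 up on cdHFD. Of all genes, 12.6% were called for genotype on chow (7.0% higher, 5.61% lower) and 9.61% on cdHFD (4.62% higher, 4.99% lower). Of the 6 genes, only Irs1 was called for an interaction of genotype and diet, against 3.04% of all genes (1.04% upward, 2.00% downward).

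**Figure D1:**
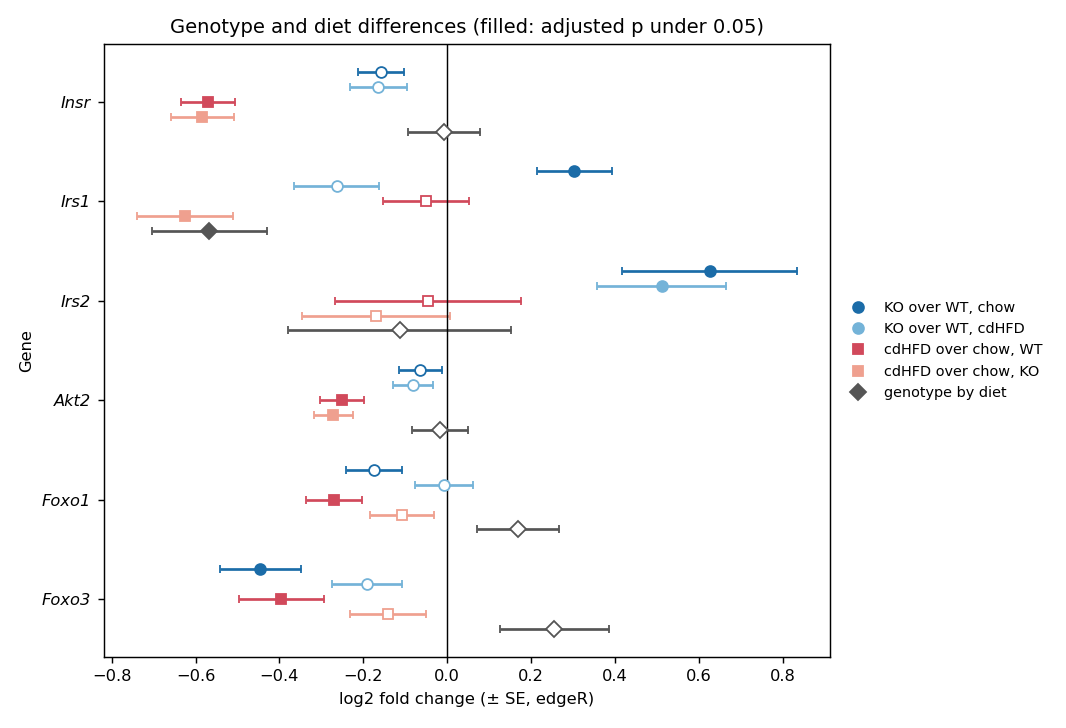
Log2 fold change (x axis, ± SE) of each of the 6 genes (y axis) for genotype within each diet, for diet within each genotype, and for their interaction, with filled points for an adjusted p under 0.05. Insr and Akt2 lay left of 0 for diet in both genotypes, Irs2 lay right of 0 for genotype on both diets, and Irs1 lay on opposite sides for genotype on chow (0.30) and on cdHFD (-0.26).

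Cell type markers moved with diet as well. The sum over 6 macrophage markers was 121 to 257 CPM (median 213) on chow and 483 to 1095 CPM (median 769.6) on cdHFD in Hep-Bmal1WT livers. In Hep-Bmal1KO livers it was 98.7 to 282 CPM (median 187) and 544 to 989 CPM (median 709). The sum over the 6 hepatocyte markers was 91903 to 207620 CPM (median 150784) on chow and 53679 to 90615 CPM (median 74076) on cdHFD in Hep-Bmal1WT livers. For Hep-Bmal1KO livers the sums were 78233 to 210780 CPM (median 102848) and 48045 to 83914 CPM (median 62047.5). All 6 macrophage markers were called higher and all 6 hepatocyte markers lower in both genotypes, and 5 of 6 stellate cell markers were higher in Hep-Bmal1WT and 6 of 6 in Hep-Bmal1KO livers. The part of these shifts in the diet results below was not tested, and in bulk tissue fewer cells of a type and less RNA per cell cannot be told apart. Between genotypes on chow, 2 of 6 hepatocyte markers were lower and 2 of 5 cholangiocyte markers higher in Hep-Bmal1KO livers. On cdHFD, 3 of 6 hepatocyte markers were lower, and 4 of 6 stellate cell and 3 of 5 cholangiocyte markers were higher in Hep-Bmal1KO livers. The part of these shifts in the genotype results was not tested either.

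Insr encodes the insulin receptor (chr8:3150922-3279649, GRCm38.p6) and had the largest diet difference of the 6 genes in Hep-Bmal1WT livers. On chow, its level ran from 29.03 to 86.2 CPM with a median of 47.3 in Hep-Bmal1WT livers, and from 28.02 to 85.5 CPM with a median of 43.4 in Hep-Bmal1KO livers. On cdHFD, the range was 23.6 to 49.1 CPM (median 31.8) in Hep-Bmal1WT and 19.7 to 45.5 CPM (median 29.3) in Hep-Bmal1KO livers. Pooled over the day the diets overlapped. Within a ZT they mostly did not, and the mean was lower on cdHFD at all 6 ZTs in both genotypes.

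At ZT 10, where Insr was highest in all 4 groups, the 4 Hep-Bmal1WT mice on chow had 64.7 to 86.2 CPM and those on cdHFD had 33.5 to 49.1 CPM. In Hep-Bmal1KO mice the corresponding ranges were 54.6 to 85.5 CPM and 29.2 to 45.5 CPM. All 4 mice on cdHFD lay below all 4 on chow at 5 of 6 ZTs in both genotypes, with ZT 18 the exception. Of all genes, 5.11% had such a separation at 5 or more ZTs in Hep-Bmal1WT and 7.34% in Hep-Bmal1KO livers. The log2 fold change for diet was -0.57 (SE 0.064, adjusted p = 9.05e-11) in Hep-Bmal1WT and -0.58 (SE 0.075, adjusted p = 2.47e-09) in Hep-Bmal1KO livers. Without the 7 libraries that went against their labels it was -0.52 and -0.56.

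For genotype, the Insr mean was lower in Hep-Bmal1KO livers at 5 of 6 ZTs on each diet, and the genotypes overlapped at most ZTs. On chow the log2 fold change was -0.16 (SE 0.055, adjusted p = 0.0512), just short of the threshold. It passed in 6 of 13 alternative settings, among them DESeq2 (adjusted p = 0.0393), sex as a covariate (adjusted p = 0.0448), and leaving out the 7 libraries (-0.19, SE 0.056, adjusted p = 0.0138). On cdHFD it was -0.16 (SE 0.068, adjusted p = 0.124). There the value was -0.34 in males (adjusted p = 0.0418) and 0.02 in females (adjusted p = 0.928), and the test of that difference between the sexes gave 0.36 (SE 0.13, adjusted p = 0.433). That model was added after the values of each sex had been seen, and 0% of all genes (0 of 15548) were called in it on cdHFD by edgeR, with 1266 at an unadjusted p under 0.05. The genotype difference of Insr had an interaction with diet of -0.01 (SE 0.086, adjusted p = 0.982).

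**Figure D2:**
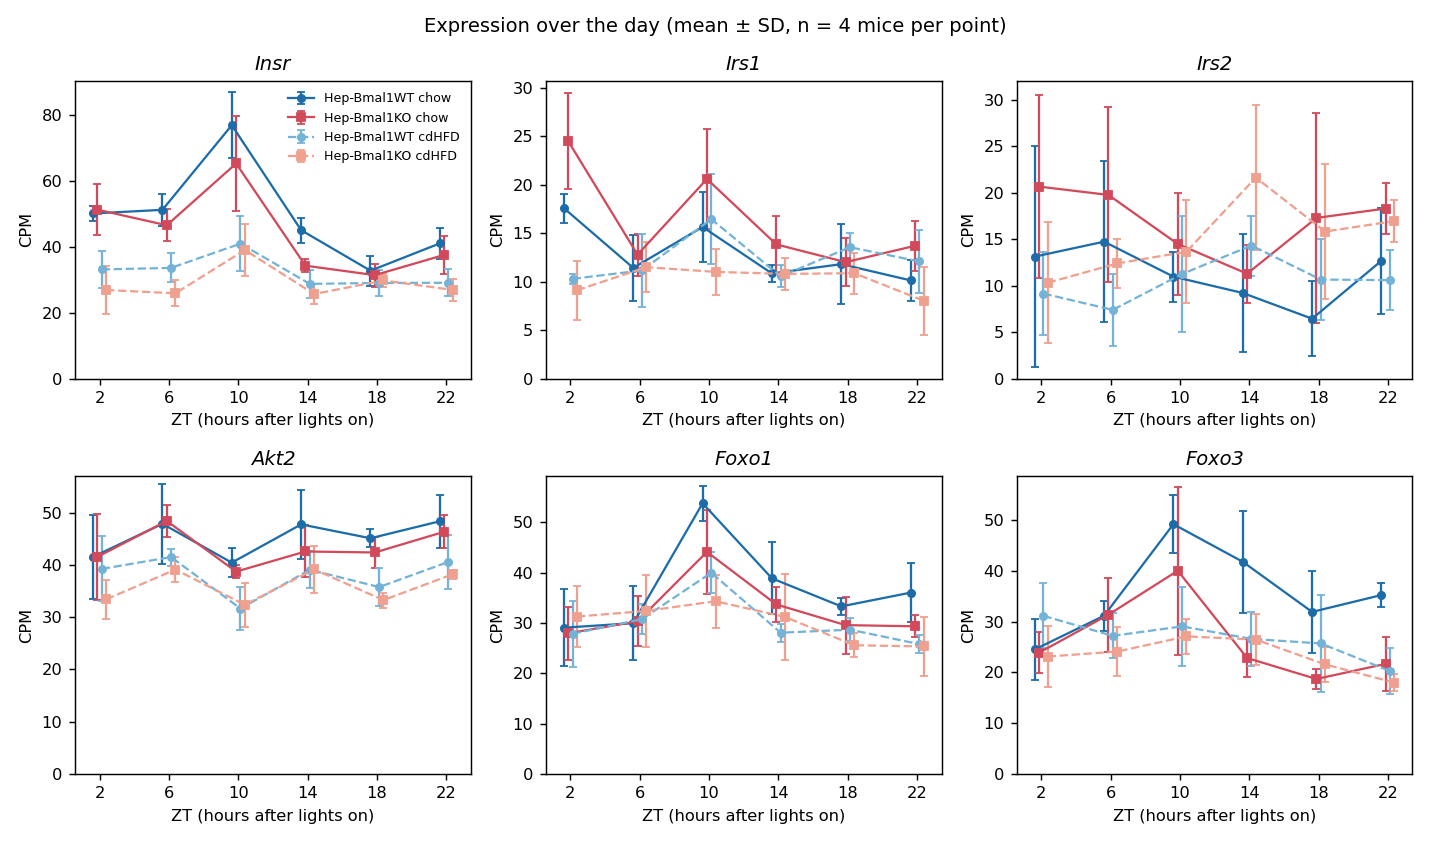
CPM (y axis, mean ± SD of 4 mice) of each gene at the 6 ZTs (x axis, hours after lights on) for the 4 combinations of genotype and diet. Insr and Foxo1 were highest and Akt2 lowest at ZT 10 in all 4 groups, and the Insr lines on cdHFD lay below those on chow at every ZT.

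Insr was called rhythmic on chow in both genotypes and in neither on cdHFD, and the test of that difference did not pass. A gene was called rhythmic where the p was under 0.01 in at least 1 of 3 tests (cosinor, JTK_CYCLE, and edgeR's test of a 24-hour wave), with amplitude as the height of the fitted wave above its mean on the log2 scale. All 3 tests called Insr on chow, with an amplitude of 0.42 (SE 0.072) and a peak at ZT 7.95 (SE 0.66 hours) in Hep-Bmal1WT livers. In Hep-Bmal1KO livers on chow the amplitude was 0.39 (SE 0.078) and the peak ZT 6.67 (SE 0.76 hours). Both fitted peaks came before ZT 10, the highest of the measured times. On cdHFD the amplitude was 0.18 (SE 0.063) in Hep-Bmal1WT and 0.14 (SE 0.082) in Hep-Bmal1KO livers, and no test called it. The amplitude was lower on cdHFD by 0.24 (SE 0.096, unadjusted p = 0.0158) in Hep-Bmal1WT and by 0.25 (SE 0.11, unadjusted p = 0.0312) in Hep-Bmal1KO livers. The edgeR test of a different rhythm between diets, adjusted over all genes, gave 0.256 and 0.163.

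Of all genes, 22.5% were called rhythmic in Hep-Bmal1WT chow livers, 11.1% in Hep-Bmal1KO chow, 18.8% in Hep-Bmal1WT cdHFD, and 10.3% in Hep-Bmal1KO cdHFD livers. Of the 6 genes, Insr, Foxo1, and Foxo3 were called in both genotypes on chow, Foxo1 alone in Hep-Bmal1WT cdHFD, and Foxo3 alone in Hep-Bmal1KO cdHFD livers. A different rhythm passed edgeR's test with adjustment in 0.392% of all genes for genotype on chow, 0.424% for genotype on cdHFD, 6.19% for diet in Hep-Bmal1WT, and 0.907% for diet in Hep-Bmal1KO livers. The 6 genes gave 0 such calls, and at an unadjusted p under 0.05 gave 1, 0, 3, and 2 in the same order.

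Irs1 (chr1:82233105-82291439), one of the substrates that the receptor phosphorylates, was the only member called for an interaction of genotype and diet. On chow it ran from 7.09 to 18.8 CPM (median 11.4) in Hep-Bmal1WT and from 8.92 to 30.7 CPM (median 14.9) in Hep-Bmal1KO livers. On cdHFD it ran from 6.48 to 21.0 CPM (median 11.3) in Hep-Bmal1WT and from 4.50 to 14.8 CPM (median 10.05) in Hep-Bmal1KO livers. Hep-Bmal1KO livers thus had the highest values on chow and the lowest on cdHFD, with wide overlap between groups.

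On chow, the Irs1 mean was higher in Hep-Bmal1KO livers at all 6 ZTs. At ZT 2 the 4 Hep-Bmal1WT mice had 15.4 to 18.8 CPM and the 4 Hep-Bmal1KO mice 19.5 to 30.7 CPM. At the other ZTs the genotypes overlapped. The share of all genes with such a separation between genotypes was not counted. The log2 fold change was 0.30 (SE 0.089, adjusted p = 0.0172), and 0.40 (SE 0.083, adjusted p = 0.000311) without the 7 libraries. Neither sex alone passed (0.36 in males, adjusted p = 0.0820, and 0.26 in females, adjusted p = 0.266), and the call was also lost without replicate 1 (0.23, adjusted p = 0.180) or replicate 4 (0.29, adjusted p = 0.0809). Each of these fits had fewer mice. On cdHFD the log2 fold change was -0.26 (SE 0.10, adjusted p = 0.0912), with Hep-Bmal1KO lower at 4 of 6 ZTs. It was -0.44 (SE 0.11, adjusted p = 0.0155) in males alone and -0.09 (SE 0.15, adjusted p = 0.835) in females alone. The test of that difference between the sexes gave 0.34 (SE 0.19, adjusted p = 0.642).

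The interaction of genotype and diet for Irs1 was -0.57 (SE 0.14, adjusted p = 0.00820), and -0.64 (SE 0.14, adjusted p = 0.000982) without the 7 libraries. The call was lost in females alone (-0.35, adjusted p = 0.477) and without replicate 1 (-0.46, adjusted p = 0.178) or replicate 2 (-0.58, adjusted p = 0.0503). Seen as a diet difference, Irs1 fell on cdHFD in Hep-Bmal1KO livers by 0.63 on the log2 scale (SE 0.11, adjusted p = 5.28e-06), with the mean lower at all 6 ZTs. In females alone that value was -0.36 (adjusted p = 0.0604). In Hep-Bmal1WT livers it was -0.05 (SE 0.10, adjusted p = 0.704), with 3 ZTs higher and 3 lower. Irs1 was not called rhythmic in any group, with amplitudes of 0.12 to 0.23.

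Irs2 (chr8:10984681-11008929), the other substrate, whose transcription in liver is known to go up in fasting, was higher in Hep-Bmal1KO livers on both diets. On chow it ran from 2.57 to 29.7 CPM (median 10.7) in Hep-Bmal1WT and from 7.06 to 33.99 CPM (median 15.6) in Hep-Bmal1KO livers. On cdHFD it ran from 3.42 to 20.4 CPM (median 9.81) in Hep-Bmal1WT and from 3.45 to 29.3 CPM (median 13.9) in Hep-Bmal1KO livers. The groups overlapped over most of their range, and mice of the same ZT could lie far apart, such as the 4 Hep-Bmal1WT mice at ZT 2 on chow with 2.57 to 29.7 CPM.

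The Irs2 mean was higher in Hep-Bmal1KO livers at 6 of 6 ZTs on each diet. The genotypes overlapped at every ZT except ZT 22 on cdHFD, where the ranges nearly touched, with 13.8 to 18.6 CPM against 7.63 to 13.7 CPM. As for Irs1, the share of all genes separated in this way was not counted. The log2 fold change was 0.63 (SE 0.21, adjusted p = 0.0394) on chow and 0.51 (SE 0.15, adjusted p = 0.0235) on cdHFD. Without the 7 libraries it was 0.74 (adjusted p = 0.0157) and 0.61 (adjusted p = 0.00336). The interaction with diet was -0.11 (SE 0.27, adjusted p = 0.888), and the diet differences were -0.05 (SE 0.22, adjusted p = 0.881) in Hep-Bmal1WT and -0.17 (SE 0.18, adjusted p = 0.410) in Hep-Bmal1KO livers.

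Irs2 was also the only member of the 6 to pass the test for sex (17.2% of all genes called, 8.99% higher and 8.24% lower in females). Over all groups, Irs2 ran from 2.57 to 33.02 CPM (median 10.7) in 49 males and from 4.46 to 33.99 CPM (median 14.5) in 47 females. It was higher in females by 0.48 on the log2 scale (SE 0.13, adjusted p = 0.00425), a call lost without replicate 1 (0.40, adjusted p = 0.0736). In Hep-Bmal1WT mice on chow the mean was 7.33 ± 5.08 CPM in males and 15.1 ± 6.60 CPM in females (SD, n = 12 each), and in Hep-Bmal1KO mice 15.2 ± 7.15 and 18.7 ± 7.94 CPM.

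The genotype difference of Irs2 on chow was 1.09 in males (SE 0.23, adjusted p = 0.00178) and 0.32 in females (SE 0.20, adjusted p = 0.479). On cdHFD it was 0.70 (SE 0.20, adjusted p = 0.0328) and 0.26 (SE 0.17, adjusted p = 0.493). The difference between the sexes was itself not called, with -0.67 on chow (SE 0.36, adjusted p = 0.643, against 0.341% of all genes called) and -0.48 on cdHFD (SE 0.30, adjusted p = 0.688). The chow and cdHFD calls were also lost without replicate 1 (0.50 and 0.33) or without replicate 2 (0.53 and 0.51). These replicate numbers are mostly male. Irs2 was not called rhythmic in any group, with amplitudes of 0.30 to 0.36 (SE 0.14 to 0.22). The exception was Hep-Bmal1KO chow livers without replicate 4 (amplitude 0.39, SE 0.13). The highest mean of Irs2 came at ZT 6 or ZT 2 on chow and at ZT 14 on cdHFD. EdgeR's test of a different rhythm between diets gave an adjusted p of 0.238 in Hep-Bmal1WT and 0.154 in Hep-Bmal1KO livers.

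**Figure D3:**
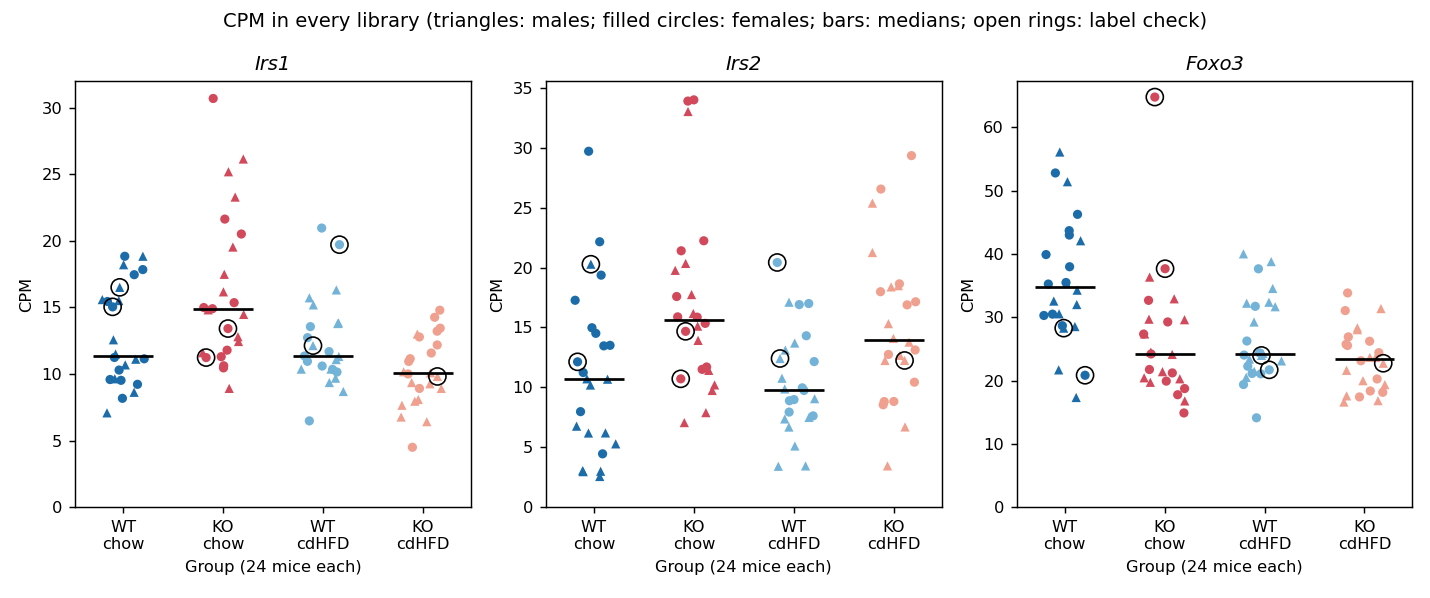
CPM (y axis) of Irs1, Irs2, and Foxo3 in every library of the 4 groups (x axis, 24 mice each), with triangles for males, filled circles for females, bars for medians, and open rings around the 7 libraries that went against their genotype label. The triangles of Irs2 in Hep-Bmal1WT chow livers had a median of 6.20 CPM and the circles 14.0 CPM.

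Akt2 (chr7:27591552-27640826), the kinase that carries the insulin signal on, was lower on cdHFD in both genotypes by a small and even amount. On chow it ran from 32.1 to 54.9 CPM (median 45.3) in Hep-Bmal1WT and from 31.1 to 51.1 CPM (median 44.1) in Hep-Bmal1KO livers. On cdHFD it ran from 28.1 to 47.2 CPM (median 38.6) in Hep-Bmal1WT and from 27.1 to 44.8 CPM (median 36.6) in Hep-Bmal1KO livers. The diets overlapped when pooled, and the mean was lower on cdHFD at 6 of 6 ZTs in each genotype. The mice were free of overlap at 1 ZT in Hep-Bmal1WT and at 4 ZTs in Hep-Bmal1KO livers, where 10.5% of all genes had 4 or more such ZTs.

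The log2 fold change of Akt2 for diet was -0.25 (SE 0.052, adjusted p = 5.45e-05) in Hep-Bmal1WT and -0.27 (SE 0.046, adjusted p = 1.19e-06) in Hep-Bmal1KO livers, and both passed under each of 13 alternative settings. For genotype it was -0.06 (SE 0.051, adjusted p = 0.496) on chow and -0.08 (SE 0.047, adjusted p = 0.317) on cdHFD. Akt2 was lowest at ZT 10 in all 4 groups, the time at which Insr and Foxo1 were highest, with means from 31.7 to 40.5 CPM. In all 4 groups the Akt2 mean at ZT 2, 10, and 18 lay below that of each neighboring ZT. In Hep-Bmal1KO cdHFD livers these means were 33.4, 32.4, and 33.3 CPM. Those at ZT 6, 14, and 22 were 39.1, 39.2, and 38.3 CPM. In Hep-Bmal1WT chow livers they were 41.6, 40.5, and 45.1 CPM against 47.9, 47.8, and 48.4 CPM. The former ZTs lay in other rows of the library plate than the latter. The part of plate position in this pattern was not tested. The lowest ZT stood 1.20 to 1.31-fold below the highest, amplitudes were at most 0.09, and no test called a rhythm.

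Foxo1 (chr3:52268337-52350109), the FOXO factor best known for driving genes of glucose output in liver, was lower on cdHFD in Hep-Bmal1WT livers. On chow it ran from 20.8 to 58.7 CPM (median 34.6) in Hep-Bmal1WT and from 21.2 to 56.4 CPM (median 31.5) in Hep-Bmal1KO livers. On cdHFD it ran from 21.0 to 44.1 CPM (median 29.03) in Hep-Bmal1WT and from 18.5 to 40.1 CPM (median 28.4) in Hep-Bmal1KO livers. Its mean was highest at ZT 10 in all 4 groups. There the 4 Hep-Bmal1WT mice had 50.8 to 58.7 CPM on chow and 34.6 to 44.1 CPM on cdHFD.

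In Hep-Bmal1WT livers the 4 mice on cdHFD lay below the 4 on chow at ZT 10, 14, 18, and 22 for Foxo1, and 7.78% of all genes had 4 or more such ZTs. The log2 fold change was -0.27 (SE 0.066, adjusted p = 0.000500), and -0.20 (SE 0.070, adjusted p = 0.0147) without the 7 libraries. It did not pass in males alone (-0.19, adjusted p = 0.0694) or without replicate 4 (-0.17, adjusted p = 0.0501). In Hep-Bmal1KO livers the value was -0.11 (SE 0.077, adjusted p = 0.225), with no ZT free of overlap. The interaction was 0.17 (SE 0.098, adjusted p = 0.390), so a difference between the genotypes in the diet effect was not shown.

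For genotype, Foxo1 had a log2 fold change of -0.17 (SE 0.067, adjusted p = 0.0784) on chow and -0.01 (SE 0.070, adjusted p = 0.973) on cdHFD. The chow value was -0.29 (adjusted p = 0.00569) without replicate 3 and -0.18 (adjusted p = 0.0497) with sex as a covariate. Foxo1 was called rhythmic by 1 of 3 tests in Hep-Bmal1WT chow livers, with an amplitude of 0.28 (SE 0.088) and a peak at ZT 12.4 (SE 1.22 hours). All 3 tests called it in Hep-Bmal1KO chow livers (0.24, SE 0.068, ZT 11.1) and in Hep-Bmal1WT cdHFD livers (0.21, SE 0.055, ZT 9.79). In Hep-Bmal1KO cdHFD livers the amplitude was 0.21 (SE 0.077) and no test called it, except without replicate 4 (0.27, SE 0.082). The amplitudes of the last 2 groups differed by -0.0030 (SE 0.094, unadjusted p = 0.975).

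Foxo3 (chr10:42181845-42276695), a second FOXO factor, had the smallest p for genotype of the 6 genes on chow. There it ran from 17.3 to 56.1 CPM (median 34.8) in Hep-Bmal1WT and from 14.9 to 64.8 CPM (median 24.2) in Hep-Bmal1KO livers. On cdHFD it ran from 14.1 to 40.03 CPM (median 24.2) in Hep-Bmal1WT and from 16.6 to 33.9 CPM (median 23.4) in Hep-Bmal1KO livers. Hep-Bmal1WT chow livers thus stood above the other 3 groups in their median. The highest value of all, 64.8 CPM at ZT 10, came from 1 of the 7 libraries, a Hep-Bmal1KO chow female, and the other 3 mice of its group had 29.7 to 32.9 CPM.

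On chow, the Foxo3 mean was lower in Hep-Bmal1KO livers at 5 of 6 ZTs. At ZT 14 the range was 28.5 to 52.8 CPM in Hep-Bmal1WT and 19.7 to 27.4 CPM in Hep-Bmal1KO mice. At ZT 22 it was 32.02 to 37.99 CPM and 14.9 to 27.4 CPM, and at the other ZTs the genotypes overlapped. How many of all genes separate in this way between genotypes was not counted. At ZT 18 the ranges were 20.9 to 39.9 CPM and 16.8 to 21.4 CPM, where the lowest Hep-Bmal1WT value came from 1 of the 7 libraries. The log2 fold change was -0.45 (SE 0.097, adjusted p = 0.00102), and -0.56 (SE 0.088, adjusted p = 4.06e-06) without the 7 libraries. It passed in males alone (-0.40, adjusted p = 0.0202) and not in females alone (-0.48, adjusted p = 0.0663), with a difference between the sexes of -0.06 (SE 0.19, adjusted p = 0.981).

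On cdHFD, Foxo3 was lower in mean in Hep-Bmal1KO livers at 6 of 6 ZTs with overlap at each, and the log2 fold change was -0.19 (SE 0.082, adjusted p = 0.146). In males alone it was -0.38 (adjusted p = 0.0279) and in females alone 0.01 (adjusted p = 0.974), with a difference of 0.39 (SE 0.16, adjusted p = 0.502). For diet, Foxo3 changed by -0.40 (SE 0.10, adjusted p = 0.000880) in Hep-Bmal1WT livers, where it was lower at 5 of 6 ZTs. That value was -0.17 (adjusted p = 0.281) in males alone and -0.58 (adjusted p = 0.000912) in females alone. In Hep-Bmal1KO livers the diet value was -0.14 (SE 0.091, adjusted p = 0.174). The interaction was 0.26 (SE 0.13, adjusted p = 0.311), and 0.35 (SE 0.12, adjusted p = 0.0803) without the 7 libraries.

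Foxo3 was called rhythmic on chow by 2 tests in Hep-Bmal1WT livers, with an amplitude of 0.33 (SE 0.091) and a peak at ZT 12.5 (SE 1.04 hours). All 3 tests called it in Hep-Bmal1KO livers, with an amplitude of 0.41 (SE 0.091) and a peak at ZT 8.09 (SE 0.85 hours). The difference of the fitted peaks, Hep-Bmal1KO minus Hep-Bmal1WT, was -4.43 hours (SE 1.35, unadjusted p = 0.00202) and did not pass with an adjusted p of 0.107 over the 955 genes rhythmic in both groups. The highest measured mean was at ZT 10 in both genotypes, with the library at 64.8 CPM included. Without the 7 libraries the difference was -5.35 hours. EdgeR's test of a different rhythm gave an adjusted p of 0.297, and 0.0873 without the 7 libraries. On cdHFD, Foxo3 was called by all 3 tests in Hep-Bmal1KO livers (amplitude 0.23, SE 0.065, peak ZT 10.3) and by none in Hep-Bmal1WT livers (amplitude 0.16, SE 0.092), and the amplitudes differed by 0.07 (SE 0.11, unadjusted p = 0.512).

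The other genes of the pathway were taken from 5 lists of 107 genes, of which 104 could be tested. On chow, 6 of 22 genes at the receptor and adaptor level (27.3%) were called for genotype, against 12.6% of all genes. Grb14, an adaptor that inhibits the receptor's kinase, was higher in Hep-Bmal1KO livers by 0.36 (SE 0.090, adjusted p = 0.00393). Ceacam1, which promotes insulin uptake and clearance by the hepatocyte, was higher by 0.39 (SE 0.089, adjusted p = 0.00145), and Ptprf was higher too. The docking protein Gab1 was lower (-0.51, SE 0.10, adjusted p = 0.000423), and Sh2b2 and Sos1 were lower as well. On cdHFD, 3 of 22 (13.6%) were called against 9.61% of all genes (Ceacam1 and Grb10 higher, Enpp1 lower), and Grb14 was at 0.01 (SE 0.055). Its interaction with diet passed, at -0.36 (SE 0.11, adjusted p = 0.0428).

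At the level of phosphatidylinositol kinase and AKT, 4 of 25 genes were called for genotype on chow (Pik3ca, Pik3r1, Trib1, Trib3) and 3 of 25 on cdHFD (Pik3r1, Trib1, Prkcz), all of them lower in Hep-Bmal1KO livers. These shares, 16% and 12%, were near the 12.6% and 9.61% called of all genes. The median of the list was -0.09 on chow and -0.03 on cdHFD, against -0.01 and 0.01 over all genes. Pik3r1, a regulatory subunit of the lipid kinase, was lower on both diets, with -0.43 (SE 0.12, adjusted p = 0.0131) and -0.48 (SE 0.13, adjusted p = 0.0116). Trib1, a pseudokinase, had values of -0.51 (SE 0.12, adjusted p = 0.00273) and -0.39 (SE 0.087, adjusted p = 0.00181).

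In the mTORC1 and GSK3 branch, 5 of 18 genes (27.8%) were called for genotype on chow and 2 of 18 (11.1%) on cdHFD, against 12.6% and 9.61% of all genes, with Rps6 higher on chow and the others lower. Gys2, the glycogen synthase of liver, had the largest difference, with medians of 140.2 CPM in Hep-Bmal1WT and 67.9 CPM in Hep-Bmal1KO livers on chow. Its log2 fold change was -0.99 (SE 0.14, adjusted p = 1.80e-06) on chow and -0.64 (SE 0.099, adjusted p = 1.36e-05) on cdHFD. Mtor, the kinase of the complex, was lower on chow (-0.35, SE 0.087, adjusted p = 0.00397) and at 0.06 (SE 0.069) on cdHFD, with an interaction of 0.41 (SE 0.11, adjusted p = 0.0202).

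The 17 tested genes of the FOXO family and its cofactors gave 0 calls for genotype on each diet with edgeR, 2 on each diet at an unadjusted p under 0.05, and 1 on chow and 0 on cdHFD with DESeq2. Of 22 FOXO and insulin target genes of liver, 7 were called on chow (31.8%) and 9 on cdHFD (40.9%), against 12.6% and 9.61% of all genes. Genes that FOXO factors are known to induce were found on both sides. Pdk4, which restrains pyruvate oxidation, was higher in Hep-Bmal1KO livers on chow (1.09, SE 0.28, adjusted p = 0.00494) and on cdHFD (1.03, SE 0.21, adjusted p = 0.000504). Cdkn1a, a cell cycle inhibitor, was higher by 1.45 (SE 0.30, adjusted p = 0.000519) on chow and 0.50 (SE 0.096, adjusted p = 0.000297) on cdHFD. Sesn3 was higher on both diets, and G6pc and Ccng2 were higher on chow. The catalase gene Cat was lower on both diets, with -0.20 (SE 0.065, adjusted p = 0.0323) and -0.30 (SE 0.056, adjusted p = 0.000183).

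Igfbp1, a secreted IGF-binding protein that insulin represses, was called on cdHFD, at 1.45 (SE 0.23, adjusted p = 1.70e-05), and had 0.49 (SE 0.33, adjusted p = 0.400) on chow. Its medians were 37.99 and 66.1 CPM on chow and 171 and 604 CPM on cdHFD in Hep-Bmal1WT and Hep-Bmal1KO livers. The interaction was 0.97 (SE 0.41, adjusted p = 0.199). Lpin1 was lower on chow (-0.50, SE 0.17, adjusted p = 0.0343) and at 0.39 (SE 0.16, adjusted p = 0.134) on cdHFD. Its interaction of genotype and diet passed, at 0.90 (SE 0.24, adjusted p = 0.0203).

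**Figure D4:**
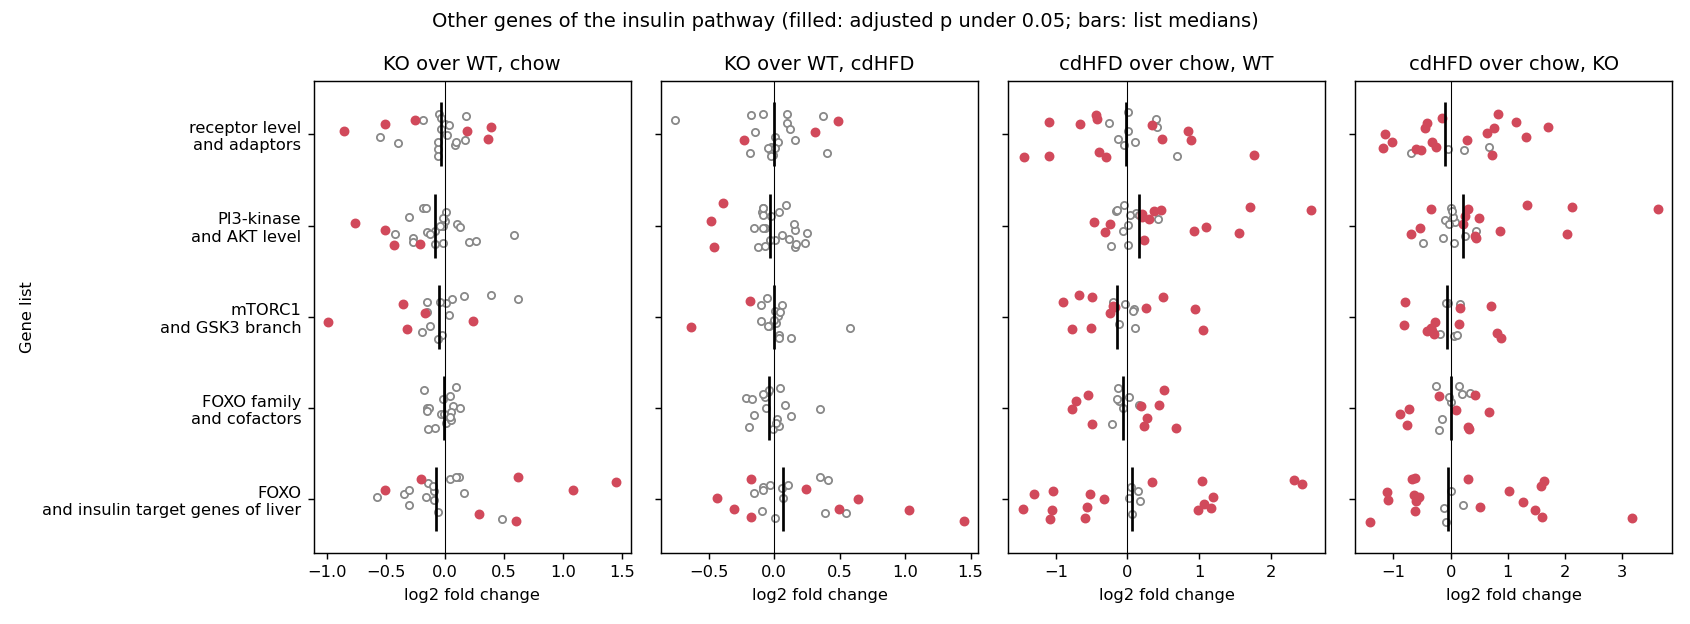
Log2 fold change (x axis) of the 104 tested genes of the 5 pathway lists for genotype within each diet and diet within each genotype, with filled points for an adjusted p under 0.05 and bars for list medians. Genotype medians lay between -0.09 and 0.07, and the lists spread more widely for diet than for genotype.

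For diet, genes of the pathway were called in both directions. In Hep-Bmal1WT livers, 13 of 22 receptor level genes, 14 of 25 kinase level genes, 12 of 18 genes of the mTORC1 and GSK3 branch, 10 of 17 of the FOXO family and cofactors, and 17 of 22 target genes were called. In Hep-Bmal1KO livers the counts were 18, 14, 12, 9, and 18. The shares ran from 56% to 77.3% in Hep-Bmal1WT and from 52.9% to 81.8% in Hep-Bmal1KO livers, against 55.7% and 61.9% of all genes, so that several of the lists lay near the share over all genes. At the kinase level 11 of the 14 called were higher on cdHFD in each genotype, and they include Pik3cd (1.71, SE 0.13, adjusted p = 1.71e-16, in Hep-Bmal1WT livers) and Inpp5d (1.55, SE 0.13, adjusted p = 2.16e-15), both of which are typical of blood cells. At the receptor level, Dok1 was higher (1.77, SE 0.17, adjusted p = 1.07e-12) and Grb7 (-1.10, SE 0.11, adjusted p = 5.55e-12) and Ceacam1 (-1.10, SE 0.093, adjusted p = 1.11e-14) were lower. The part of the macrophage markers given above in these values was not tested.

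In the mTORC1 branch, Deptor (-0.90, SE 0.083, adjusted p = 1.90e-13) and Eif4ebp2 (-0.77, SE 0.057, adjusted p = 1.04e-16) were lower on cdHFD in Hep-Bmal1WT livers, and the stress gene Sesn2 was higher (1.05, SE 0.17, adjusted p = 7.91e-07). Among the FOXO cofactors, the deacetylase gene Sirt3 was lower (-0.77, SE 0.068, adjusted p = 4.88e-14), and Mdm2 (0.51, SE 0.073, adjusted p = 4.27e-08) and Ywhaz (0.43, SE 0.057, adjusted p = 4.62e-09) were higher. Of the targets, Cdkn1a was higher (2.44, SE 0.22, adjusted p = 4.56e-14), and Cat (-1.30, SE 0.065, adjusted p = 3.18e-23) and Apoc3 (-1.08, SE 0.064, adjusted p = 3.43e-20) were lower. All 9 genes of these 3 lists were called in the same direction in Hep-Bmal1KO livers.

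The genes most like each member were taken as those with the highest Pearson correlation over the 24 means of genotype, diet, and ZT, among 8994 genes with a mean of at least 5 CPM. The means share libraries and depth across genes, and the correlations are descriptions without a test. Insr was closest to Nr3c1, the glucocorticoid receptor gene (r = 0.957), and to Hook3 and Zzef1. Foxo3 was closest to Gys2 (r = 0.882) and Serpina6, Foxo1 to Arhgef26 (r = 0.880), B3gnt8, and Eif2b1, and Akt2 to Rxra (r = 0.902), Phf7, and Hdgf. Irs1 was closest to Pcsk5 (r = 0.848), H2-T23, and Helz2. Irs2 had the lowest such value of the 6, with Gm379 (r = 0.774), Cinp, and Trmt9b. Between the members, Insr had r = 0.679 with Foxo3, 0.635 with Irs1, 0.625 with Foxo1, and -0.02 with Irs2.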

How the data were processed

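Liver RNA of 96 mice was sequenced by BRB-seq. The authors used the BRB-seq tools to separate the samples and STAR to align to mm10, and the deposited values are raw counts of reads per gene. The methods name both HTSeq and FeatureCounts for the counting, and their versions, the strand used, and any collapsing of molecular identifiers are not given in the sources used here. Intervals from counting would therefore cover counting error only. At 1861740 to 9718615 counts per library, the least covered members, Irs1 and Irs2, rested on 26 to 153 and 12 to 283 counts. Entries that name no gene held 22.6% to 39.9% of reads and were left out. No column of per-sample values was left unused.

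R 4.3.3, edgeR 4.0.16, and DESeq2 1.42.0 were used. Genes below 100 counts in total were left out. Genotype within diet, diet within genotype, and sex were tested on TMM-scaled counts by edgeR (quasi-likelihood F test), with ZT as a factor (for sex, each combination of genotype, diet, and ZT), and genotype by diet over all libraries, with Benjamini-Hochberg adjustment over all genes tested. Rhythms were fitted with a period of 24 hours on variance-stabilized values of DESeq2 (cosinor, JTK_CYCLE) and on counts (edgeR). Amplitudes and phases were compared by a least-squares fit of CircaCompare's model, with standard errors by the delta method. Each mouse is 1 library, and groups came from the deposited labels. The columns of the library plate follow genotype and diet, so that plate column and group cannot be told apart. Rows A to D and rows E to H held different ZTs in every group. A difference between the ZTs of these parts cannot be told apart from plate position. The plate row was tried as a covariate, which cannot separate them. The part of plate position in the ZT profiles and rhythms was not tested. Libraries were checked against their label on log2 CPM (prior count 2). Positions are those of RefSeq for GRCm38.p6, matched by symbol.

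The 6 genes, the pathway and marker lists, and the rules were chosen with earlier results of these data known. Named were the 6 genes and, of each list, the genes of smallest p for genotype (up to 4) and for diet in Hep-Bmal1WT livers (up to 3), and the 3 genes most like each member, of which a few are not reported here. Other list genes named were chosen after their values were seen. Alternatives were DESeq2, its size factors, other filters on low counts, sex or plate row as a covariate, each sex alone, single rhythm tests, log2 CPM, and leaving out the 7 libraries or each replicate number. The scripts were tested on simulated data.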

Additional observations from a re-analysis of the deposited data

Results flagged for a closer look

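In 144 groups of 4 mice (6 genes at 6 ZTs in 4 combinations of genotype and diet), 1 mouse stood far from the other 3 in 7, by Dixon's criterion. Chance flags about 1 in 20 groups. Insr reached 46.2 CPM in a Hep-Bmal1KO chow male at ZT 22, where the other 3 mice had 33.98 to 35.03 CPM. Irs1 reached 16.5 CPM in a Hep-Bmal1WT chow male at ZT 6 and 13.2 CPM in a Hep-Bmal1KO cdHFD female at ZT 14. Akt2 was lowest at 42.6 CPM in a Hep-Bmal1WT chow female at ZT 18, against 45.7 to 46.3 CPM in the others. Foxo3 reached 34.6 CPM at ZT 14 and 40.03 CPM at ZT 18 in Hep-Bmal1WT cdHFD males, and 64.8 CPM in a Hep-Bmal1KO chow female at ZT 10. The Irs1 mouse at ZT 6, the Akt2 mouse, and the Foxo3 mouse at ZT 10 are among the 7 libraries that went against their genotype label.

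The genotype difference of Irs1 differed between the diets, with an interaction of -0.57 on the log2 scale (SE 0.14, adjusted p = 0.00820).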

How the results depend on the processing

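No paired analysis was possible because the labels carry no replicate numbers, and the numbers given in accession order pair no mice. Of 991 values under alternatives, 882 kept their direction and side of the threshold (for counts, stayed within 1.5 times), 34 lost a call, 13 gained one, 25 changed sign, and 37 counts moved further. The diet differences of Insr and Akt2 passed in both genotypes under each of 13 settings. Where a call was lost, the cause was not tested, except that single sexes and left-out replicates have fewer mice. Irs1 and Irs2 rested on the fewest counts of the 6 genes, and the part of depth in their errors was not tested.

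In females alone the genotype differences were 0.26 for Irs1, 0.32 for Irs2, and -0.48 for Foxo3 on chow and 0.26 for Irs2 on cdHFD, none past the threshold, and the counts of genes called were 578 (main 1960) on chow, 647 (main 1494) on cdHFD, and 153 (main 473) for the interaction, with Irs1 at -0.35 there and at -0.36 for diet in Hep-Bmal1KO livers. In males alone Irs1 on chow was 0.36, the diet differences in Hep-Bmal1WT livers were -0.19 for Foxo1 and -0.17 for Foxo3, and 802 genes were called for genotype on cdHFD. Without the 7 libraries that went against their labels, 919 genes were called for the interaction and 179 (main 61) for a rhythm difference between genotypes on chow.

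Of the rhythms, Foxo1 in Hep-Bmal1WT chow livers (amplitude 0.28) was not called by the cosinor test or JTK_CYCLE alone, nor Foxo3 there (0.33) by JTK_CYCLE alone. With an adjusted p, Foxo1 in Hep-Bmal1KO chow (0.24) and Foxo3 in Hep-Bmal1KO cdHFD livers (0.23) were not called. JTK_CYCLE alone called 1055 genes in Hep-Bmal1KO chow (main 1732), 1944 in Hep-Bmal1WT cdHFD (main 2917), and 986 in Hep-Bmal1KO cdHFD livers (main 1598), and adjusted p values called 728 and 658 in the 2 Hep-Bmal1KO groups.

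Leaving out each replicate number in turn gave 940 to 1630 genes for genotype on chow, 522 to 1376 on cdHFD, 103 to 373 for the interaction, and 1585 to 1930 for sex (main 2679). Rhythmic genes numbered 1844 to 2371 in Hep-Bmal1WT cdHFD and 1021 to 1290 in Hep-Bmal1KO cdHFD livers. Rhythm differences numbered 1 to 38 for genotype on chow, 12 to 35 on cdHFD (main 66), 348 to 534 for diet in Hep-Bmal1WT (main 963), and 3 to 17 in Hep-Bmal1KO livers (main 141). Calls were lost in part for genotype on chow for Irs1 (0.23 to 0.36) and Irs2 (0.50 to 0.80), on cdHFD for Irs2 (0.33 to 0.67), for diet in Hep-Bmal1WT livers for Foxo1 (-0.35 to -0.17), for the interaction of Irs1 (-0.63 to -0.46), and for sex of Irs2 (0.40 to 0.53). They were lost in part for the amplitudes of Foxo1 in Hep-Bmal1WT chow (0.23 to 0.30), Hep-Bmal1KO chow (0.23 to 0.27), and Hep-Bmal1WT cdHFD livers (0.18 to 0.23), and of Foxo3 in Hep-Bmal1WT chow (0.30 to 0.37) and Hep-Bmal1KO cdHFD livers (0.22 to 0.28).

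Calls were gained for genotype on chow for Insr under 6 settings (-0.19 to -0.15) and for Foxo1 with sex as a covariate (-0.18) and without replicate 3 (-0.29), for genotype on cdHFD in males alone for Insr, Irs1, and Foxo3 (-0.34, -0.44, and -0.38), and without replicate 4 for the rhythms of Irs2 in Hep-Bmal1KO chow (0.39) and Foxo1 in Hep-Bmal1KO cdHFD livers (0.27).

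Values that changed sign did not pass the threshold. For genotype on cdHFD in females alone these were Insr (0.024), Foxo1 (0.0085), and Foxo3 (0.011), and Foxo1 without the 7 libraries (0.00068) and without single replicates (-0.022 to 0.035). For diet in Hep-Bmal1WT livers these were Irs2 with sex as a covariate (0.019), in males alone (0.31), and without single replicates (-0.18 to 0.20), and Irs1 without single replicates (-0.19 to 0.11). For diet in Hep-Bmal1KO livers it was Irs2 without single replicates (-0.37 to 0.052). The interaction of Insr was 0.0072 with DESeq2, 0.0055 with its size factors, 0.0014 with at least 10 counts in 24 libraries, 0.16 in females alone, and -0.034 to 0.015 without single replicates, and that of Akt2 was 0.0043 in males alone and -0.061 to 0.024. For sex, Akt2 had 0.0081 with DESeq2, 0.0065 with its size factors, and -0.011 to 0.0030 without single replicates, Irs1 -0.058 to 0.14, and Foxo3 -0.059 to 0.079.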
